A study of Mus musculus with 5 samples.

Results

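Among single cells of fetal intestinal organoids, the wells richest in messenger RNA of 6 genes known as targets of YAP and TAZ are described here. For each well, the unique molecular identifiers (UMIs, 1 per captured transcript) of Ankrd1, Cyr61, Ctgf, Akap12, Cald1 and Lats2 were summed and divided by all UMIs of the well, spike-ins left out. The members are the upper 25% of wells by this share, 92 of 371 kept fetal wells, out of 1701 kept wells in all 5 libraries. They were compared with the 92 wells of lowest share (the lower wells), and the 187 wells between them (the middle wells) were kept as a set of their own. The share that chose the members comes from the same wells as every fetal level below, so the levels are descriptions and carry no test.

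The series profiled mouse gut organoids, 3-dimensional cultures of epithelium, by SORT-seq, in which sorted cells are lysed in a 384-well plate with barcoded primers. All organoids were grown in a medium with Egf, R-spondin1 and Noggin. The 5 libraries were 1 plate each: fetal intestinal organoids of wild-type genotype, small intestinal organoids of wild-type genotype, small intestinal organoids with Lkb1 +/- (a kinase gene), and a pair of small intestinal libraries with Lkb1 -/- whose titles carry the unexplained marks Bud and Cys. The labels give no age, animal, clone or number of cultures, so 1 plate stands for each group and no spread between cultures is known.

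YAP and its relative TAZ (gene Wwtr1) are coactivators that enter the nucleus and bind TEAD transcription factors when the Hippo kinases, among them LATS1 and LATS2, do not phosphorylate them. Stretch, spreading on a stiff matrix and actin tension are known to favour their entry, and their targets include matricellular proteins, actin regulators and inhibitors of the pathway itself. In the gut, YAP activity is known for its part in fetal epithelium and in repair after injury, where adult stem cell genes are low.

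The promoters of Ankrd1, Cyr61 and Amotl2 are printed because these genes led the rule or came out nearest to it in the wells. The 250 bases before the RefSeq start site (GRCm38.p6) were searched on both strands for the TEAD motif GGAATG, the AP-1 motif TGANTCA and the SRF CArG box. Capitals mark a TEAD match, which reads CATTCC where the match lies on the other strand. Each sequence runs 5′ to 3′ on the strand of the gene, at chr19:36119845-36120094 (minus strand) for Ankrd1, chr3:145649986-145650235 (minus strand) for Cyr61, which RefSeq lists as Ccn1, and chr9:102717554-102717803 (plus strand) for Amotl2.
Ankrd1: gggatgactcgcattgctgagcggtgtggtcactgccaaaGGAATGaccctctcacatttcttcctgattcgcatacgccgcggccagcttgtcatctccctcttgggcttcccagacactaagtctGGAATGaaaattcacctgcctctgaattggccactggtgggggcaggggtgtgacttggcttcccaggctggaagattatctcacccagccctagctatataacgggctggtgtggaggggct
Cyr61: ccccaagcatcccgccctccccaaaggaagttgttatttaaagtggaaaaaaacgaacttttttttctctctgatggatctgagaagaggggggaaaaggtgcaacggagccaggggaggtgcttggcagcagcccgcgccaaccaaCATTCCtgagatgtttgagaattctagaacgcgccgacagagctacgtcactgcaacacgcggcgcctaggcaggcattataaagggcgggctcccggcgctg
Amotl2: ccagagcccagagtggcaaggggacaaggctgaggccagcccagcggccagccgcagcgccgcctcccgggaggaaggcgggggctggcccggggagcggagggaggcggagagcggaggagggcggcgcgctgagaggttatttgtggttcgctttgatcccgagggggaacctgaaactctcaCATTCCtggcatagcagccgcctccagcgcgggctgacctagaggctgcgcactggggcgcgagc
Ankrd1 held 2 matches, 210 to 205 and 123 to 118 bases before the start, while Cyr61 held 1 at 103 to 98 bases and Amotl2 1 at 65 to 60 bases. The TEAD motif was present in 12.64% of 32851 RefSeq mouse promoters of this length. Of the other genes of the rule, the first Cald1 promoter held 1 TEAD match and the second an AP-1 match, a motif found in 6.749% of promoters. Neither Lats2 promoter held any of the 3 motifs in this window, and no CArG box, present in 1.467% of promoters, was found in any promoter searched. Ctgf, Akap12 and Myc were not among the promoters used.

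The share of UMIs from the 6 genes ran from 0.362% to 1.46% in the members, with a median of 0.487%. It ran from 0.0468% to 0.360%, with a median of 0.157%, in the middle wells, and from 0 to 0.0464%, with a median of 0.0203%, in the lower wells, where 10 wells had none of the 6. The shares formed a slope with no gap: the 3 members nearest to the threshold had 0.362%, 0.365% and 0.366%, and the 3 wells just outside it 0.360%, 0.353% and 0.345%. The members are thus the upper end of a range and not a separate group of wells. Depth was alike, with a median of 14556 UMIs in the members, 15200 in the middle wells and 13400.5 in the lower wells, and the deepest member held 82879. The share of the 6 genes and the UMIs of a well had a Spearman correlation of 0.05 over the 371 wells. The members came from both ends of the list of barcodes, with 49 of 92 among the lower-numbered ones, against 100 of 187 middle wells and 39 of 92 lower wells.

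**Figure D1:**
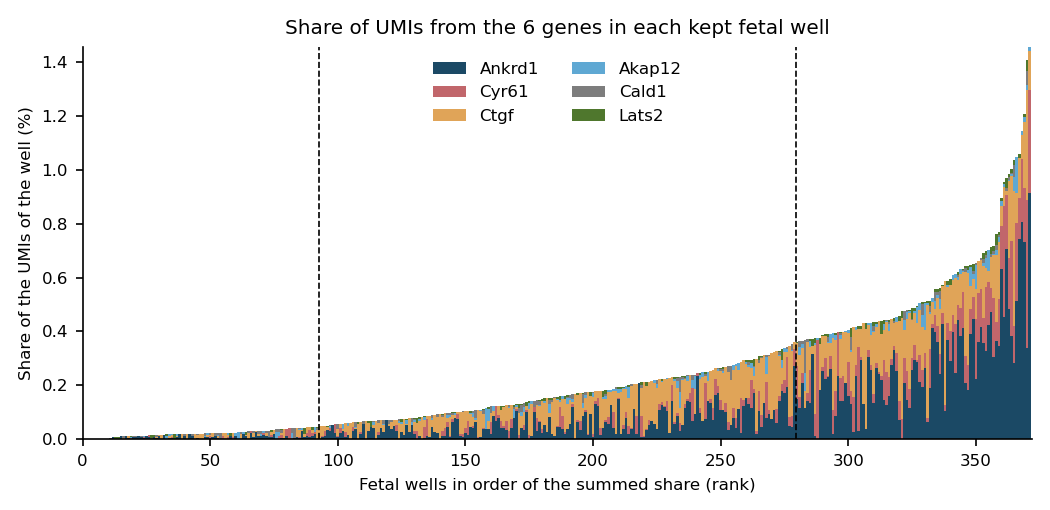
Each bar is 1 of the 371 kept fetal wells, in order of its summed share, and its height is the percent of the UMIs of that well from the 6 genes, coloured by gene. The dashed lines bound the 92 lower and the 92 upper wells. The share climbs without a step to 1.46%, and Ankrd1, Ctgf and Cyr61 make up most of it.

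Ankrd1 (GRCm38 chr19:36111965-36119844), a cardiac ankyrin repeat protein used as a readout of YAP, gave 47.8% of the UMIs of the 6 genes in the members. Its level over all UMIs of the members was 2735.5 CPM (the UMIs of a gene scaled to a fixed total for each set of wells), against 603 CPM in the middle wells and 62.4 CPM in the lower wells. In single members it ran from 0 to 9133 CPM with a median of 2523 CPM, and in lower wells from 0 to 283 CPM with a median of 56.1 CPM. Ctgf (listed by RefSeq as Ccn2, chr10:24595442-24598683), a secreted matricellular protein, stood at 1556, 740 and 66.9 CPM in the upper, middle and lower wells. Cyr61 (chr3:145646971-145649985), its close relative, stood at 1047, 184 and 19.5 CPM. These 3 genes were present in nearly every member, with at least 1 UMI in 90 members for Ankrd1, 90 for Ctgf and 86 for Cyr61.

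The other 3 genes of the rule were sparse. Akap12 (chr10:4266329-4359471), a kinase anchoring protein, had 180 CPM in the members and 23.3 CPM in the lower wells, with a UMI in 63 members. Lats2 (chr14:57689662-57746212), the Hippo kinase that is itself induced by YAP, had 103 and 15.8 CPM, with a UMI in 57 members. Cald1 (chr6:34598495-34775469), the actin-binding caldesmon, had 106 and 36.1 CPM, with a UMI in 36 members and in 29 lower wells. Only 22 of the 92 members had a UMI of all 6 genes, and 27 had 5, 29 had 4, 11 had 3 and 3 had 2 of them. Ankrd1 had the most UMIs of the 6 in 65 members, Ctgf in 23, Cyr61 in 3 and Cald1 in 1. A member of this set was therefore mostly a well high in Ankrd1, in Ctgf or in both.

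Each gene was next left out of the rule in turn, so that the wells were chosen by the other 5 genes and the sixth played no part in the choice. Ankrd1 was then 10.99-fold higher in the upper than in the lower wells (95% interval 9.72 to 12.5). The intervals cover counting error only, since UMIs of 1 plate say nothing of the spread between cultures. Cyr61 was 13.4-fold higher (10.8 to 16.8), Lats2 6.23-fold (3.97 to 10.2), Akap12 5.57-fold (3.996 to 7.96), Ctgf 4.40-fold (3.94 to 4.91) and Cald1 2.12-fold (1.54 to 2.93). All 6 genes were thus higher in fetal wells that the other 5 had chosen, with Cald1 the least so. Over the 354 wells with at least 5000 UMIs, each thinned to that number, the Spearman correlation was 0.52 between Ankrd1 and Cyr61, 0.50 between Ankrd1 and Ctgf and 0.45 between Cyr61 and Ctgf. Cald1 correlated with none of these 3 above 0.08. The points of these correlations share 1 library.

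**Figure D2:**
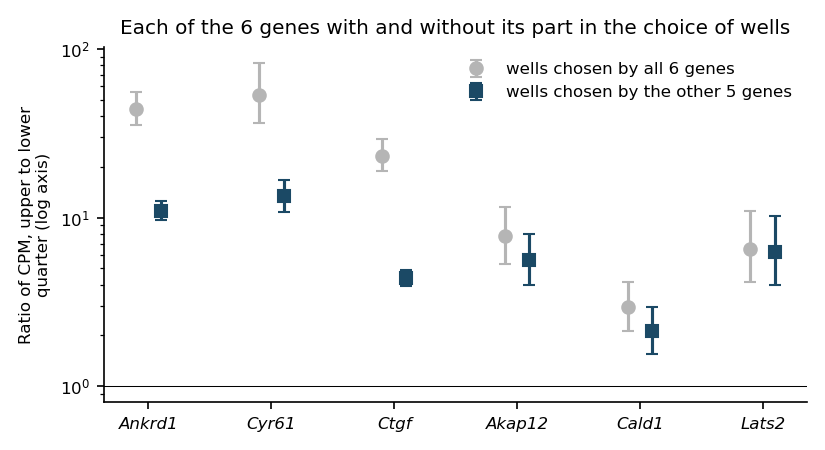
Points are the ratio of CPM between the upper and lower fetal wells for each of the 6 genes, on a log axis, with exact 95% counting intervals. Grey circles are wells chosen by all 6 genes and blue squares wells chosen by the other 5; without its own part in the choice Ankrd1 stood at 10.99-fold and Cald1 at 2.12-fold.

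Across the table, 10753 genes, the 6 of the rule included, had at least 10 UMIs over both the upper and the lower wells. A gene was called higher or lower where its CPM differed at least 1.5-fold with an interval that excluded 1, which held for 722 genes higher in the members (6.71% of genes) and 811 lower (7.54%). List medians are given as log2 ratios with 10 CPM added to both levels, a scale on which the median of all genes was -0.02 and which understates the ratio of low genes. Of 28 measured YAP and TAZ targets outside the rule, 15 were called higher and 2 lower, with a median log2 ratio of 0.72. The 2 lower were Birc5, a survivin that is also made in mitosis, and Fgf1, a growth factor.

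Amotl2, an angiomotin that holds YAP at cell junctions, had the largest log2 ratio of all genes named by rank. It stood at 293 CPM in the members, 118 CPM in the middle wells and 23.3 CPM in the lower wells, 12.6-fold higher in the members than in the lower wells (8.73 to 18.7). Single members ran from 0 to 1374 CPM with a median of 216 CPM, and 79 of 92 had a UMI, against 18 of 92 in the lower wells, where the median was 0. Ajuba, a LIM protein that restrains LATS kinases, stood at 377, 244 and 114 CPM, 3.32-fold higher (2.77 to 4.003), with a UMI in 86 members and 61 lower wells. Its relative in the angiomotin family of Amotl2, Amotl1, was 2.05-fold higher (1.59 to 2.65). Nuak2, a kinase of the Lkb1 substrate family that is also a YAP target, stood at 95.5, 56.3 and 20.3 CPM, 4.70-fold higher (3.10 to 7.38). Other called targets were Gadd45b (3.06-fold), F3, the tissue factor (2.65-fold), Crim1 (2.63-fold), the receptor kinase Axl (2.29-fold) and Ccdc80 (1.91-fold). Myof, Ptpn14, Tns3 and Gadd45a were measured and not called.

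The coactivators themselves were not called. Yap1 had 105 CPM in the members and 114 CPM in the lower wells, a ratio of 0.923 (0.734 to 1.16). Wwtr1, which codes for TAZ, had 123 against 87.2 CPM, a ratio of 1.41 (1.11 to 1.79). Among their partners, Tead1 had 188 against 135 CPM, Tead2 115 against 141 CPM and Tead3 69.4 against 58.6 CPM, and none was called. Tead4 was called higher on 18 UMIs against 2. In the Hippo core list, 4 of 28 measured genes were called higher and none lower, namely Amotl1, Amotl2, Ajuba and Tead4, with a median of 0.18. The kinases Stk3, Stk4 and Lats1, their adaptor Sav1 and the upstream tumour suppressor Nf2 were not called.

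**Figure D3:**
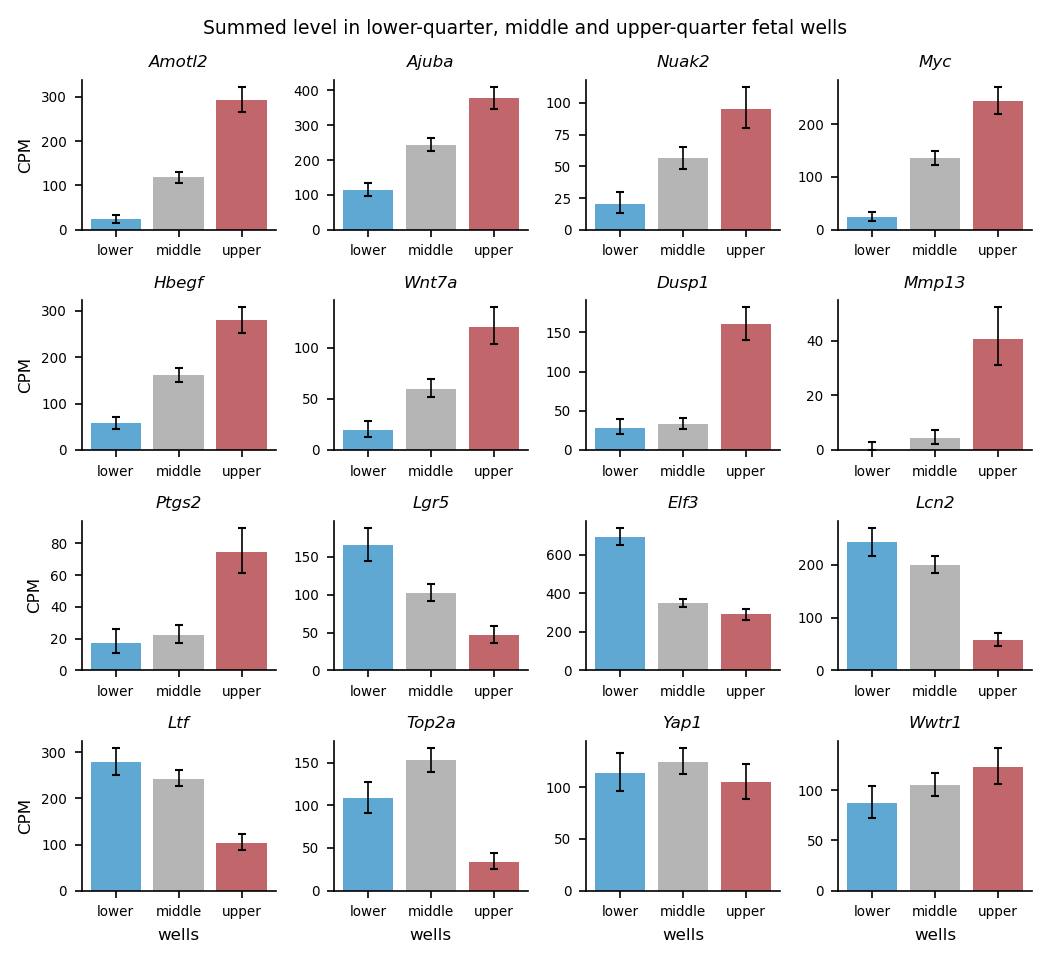
Bars are CPM over the summed UMIs of 92 lower, 187 middle and 92 upper fetal wells for 16 genes, each on its own linear axis from 0, with exact 95% Poisson intervals that cover counting error only. Amotl2 stands at 23.3, 118 and 293 CPM from the lower to the upper wells and Lgr5 at 165, 102 and 46.1 CPM, while Yap1 stays between 105 and 125 CPM.

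Genes of growth factor signalling were higher in part. Myc, the growth-promoting transcription factor, stood at 244, 135 and 24.1 CPM, 10.1-fold higher in the members than in the lower wells (7.05 to 15.03), with a UMI in 78 against 24 wells. Hbegf, a ligand of the EGF receptor, stood at 279, 161 and 57.1 CPM, 4.88-fold higher (3.82 to 6.32). The ligand Areg was 3.01-fold higher, the receptor Egfr 2.40-fold and the membrane protein Emp1 2.69-fold, and 5 of 17 measured genes of EGF signalling were called higher and none lower. Btc, Tgfa, Dusp6, Etv4 and Phlda1, further ligands and ERK targets, were not called. A pair of Wnt ligands was higher, Wnt7a at 121 against 19.5 CPM (6.18-fold, 4.08 to 9.72) and Wnt9a at 42.7 against 5.26 CPM (8.12-fold, 3.72 to 21.0). Of 14 genes of the TGF-beta response, 5 were called higher, among them the receptor Tgfbr2 (1.93-fold), the feedback inhibitors Smad7 (2.37-fold) and Pmepa1 (2.47-fold) and the ligand subunit Inhba, which had 31 UMIs against 3, and Id1 was called lower.

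Other genes with high ratios had varied functions. Ppbp, a chemokine known from platelets, stood at 1790, 741 and 465 CPM, 3.85-fold higher (3.53 to 4.21). Sgk1, a kinase activated by growth factors, was 4.68-fold higher, Rnd3, a regulator of the cytoskeleton, 4.26-fold, Tm4sf1 4.1-fold, Plk2 3.67-fold, Plscr2 3.82-fold, Tmem171 4.43-fold and the keratin gene Krt4 8.77-fold, the last with a UMI in 16 members. For 19 of the 20 highest genes by rule, the middle wells lay between both the upper and the lower wells. These genes were picked for that difference, which favours a middle level in between, so the count is a description only.

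The actin cytoskeleton list had the same number of called genes as the YAP and TAZ targets, with smaller ratios. Of 25 measured genes of actin and of serum response factor (SRF), 15 were called higher and 1 lower, with a median log2 ratio of 0.59. The actins were high in every well, with Actb at 4682 CPM in the members and 2917 CPM in the lower wells (1.61-fold, 1.54 to 1.67) and Actg1 at 4675 against 2791 CPM (1.67-fold, 1.61 to 1.74). Cnn2, a calponin, was 2.15-fold higher, the filamin Flna 2.01-fold, Pdlim5 2.12-fold, the tropomyosin Tpm1 1.80-fold, and Srf itself 1.75-fold. Several other calls lay just above the threshold, such as Actn1 at 1.51-fold. In wells thinned to 5000 UMIs, 9 of 25 were called higher, beside 448 of all 8659 genes measured there. With equal weight for each well, 9 of 25 were called higher, beside 1435 of all 10753 genes. Tgm2, a crosslinking enzyme, was the lower one, at 143 against 272 CPM.

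Of 21 genes of integrins and focal adhesions, 9 were called higher and none lower, with a median of 0.32. Bcar1, a scaffold that senses stretch, was 2.75-fold higher (2.01 to 3.79), Cav1, the caveolar coat protein, 2.64-fold (2.12 to 3.31), Itgb6 2.22-fold and Cav2 2.07-fold. The laminin receptor chain Itga3 was 1.73-fold higher at 838 against 486 CPM. Pxn, Src, Ilk and Itgav were not called. The count was 4 of 20 in thinned wells, beside 448 of all 8659 genes, and 5 of 21 against all other wells, beside 473 of all 11601. With the rule reduced to Ankrd1, Cyr61 and Ctgf it was 5 of 21. The total of all genes called higher there stayed within 1.5-fold of the main 722.

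Matrix and protease genes divided. Of 28 measured, 8 were called higher and 2 lower, with a median of 0.19. Mmp13, a collagenase and 1 of the 2 marker genes outside the rule, had 61 UMIs in the members (40.7 CPM), 4.28 CPM in the middle wells and none in the lower wells, so it was at least 18.1-fold higher against a floor of 3 UMIs over those wells, while the exact interval of the ratio begins at 14.2. Those UMIs came from 15 of 92 members, and the 0 of 92 lower wells allow a share of wells with a UMI of up to 3.26% by the limit of 3 counts (3.93% by the exact binomial bound). The urokinase Plau had 39 UMIs against 2, its receptor Plaur was 3.50-fold higher, the matrix glycoprotein Thbs1 3.11-fold and the inhibitor Timp3 4.14-fold. Adamts1 and the secreted phosphoprotein Spp1, at 1041 against 1703 CPM, were the lower genes. Fn1, Mmp7 and Mmp14 were not called.

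Ptgs2, the inducible cyclooxygenase and the other marker outside the rule, stood at 74.8, 22.4 and 17.3 CPM. It was 4.32-fold higher in the members than in the lower wells (2.74 to 7.10). Of its 112 UMIs in the members, 25 came from 1 well and 24 from another. A UMI of Ptgs2 was seen in 20 of 92 members, 32 of 187 middle wells and 11 of 92 lower wells. The exact binomial intervals of these shares, 13.8% to 31.6%, 12.0% to 23.3% and 6.12% to 20.4%, overlap. Either marker was seen in 31 members, or 33.7% (exact binomial interval 24.2 to 44.3), and both in 4. Most members thus had neither Mmp13 nor Ptgs2, and the label rests on Ankrd1 and Cyr61, which are part of the rule. Of 20 genes of prostaglandin and inflammatory signalling, 8 were called higher and 3 lower, with a median of 0.09. Tnfaip3, an inhibitor of NF-kappaB, was 2.52-fold higher, and the chemokines Cxcl16 and Cxcl1 were 2.31-fold and 2.13-fold higher, with 36.4% of the Cxcl1 UMIs of the members in 1 well. The lower genes were Nfkbia (94.8 against 188 CPM), Nfkbiz and Tnf.

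Immediate early genes, which also respond to the dissociation of tissue, were partly higher. Of 18 measured, 6 were called higher and 1 lower. Dusp1, a phosphatase that ends MAP kinase signals, stood at 160 CPM in the members and near 30 CPM elsewhere, with 33.6 CPM in the middle wells and 28.6 CPM in the lower wells, 5.61-fold higher (3.97 to 8.12). Klf6 was 3.03-fold higher, Atf3 3.404-fold, with 26.1% of its UMIs in 1 member, Junb 1.97-fold, Nr4a1 2.39-fold and Fos 1.60-fold. Jun was the lower gene, at 54.1 against 99.98 CPM, and Egr1, Ier2, Hspa1a and Hspa1b were not called. All organoids were dissociated with enzyme before sorting, and the part of dissociation in these values was not tested.

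Genes of fetal and regenerating epithelium were higher in part. Of 25 measured, 8 were called higher and none lower, with a median of 0.27. Sprr1a, a small proline-rich protein of stressed epithelium, stood at 856, 311 and 286 CPM, 2.99-fold higher (2.66 to 3.36), with 16.4% of the UMIs of the members in 1 well. Ly6a, which codes for the fetal marker Sca-1, had 1858 against 1128 CPM (1.65-fold, 1.55 to 1.76), Anxa3 1396 against 710 CPM (1.96-fold), and Krt7 2790 against 1618 CPM (1.72-fold). Clu, the marker of revival stem cells, was abundant in both the upper and the lower wells, at 4177 against 3994 CPM, and was not called, nor were Anxa1 and S100a6. Against all other wells, 4 of the 25 were called higher, beside 473 of all 11601 genes measured there.

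**Figure D4:**
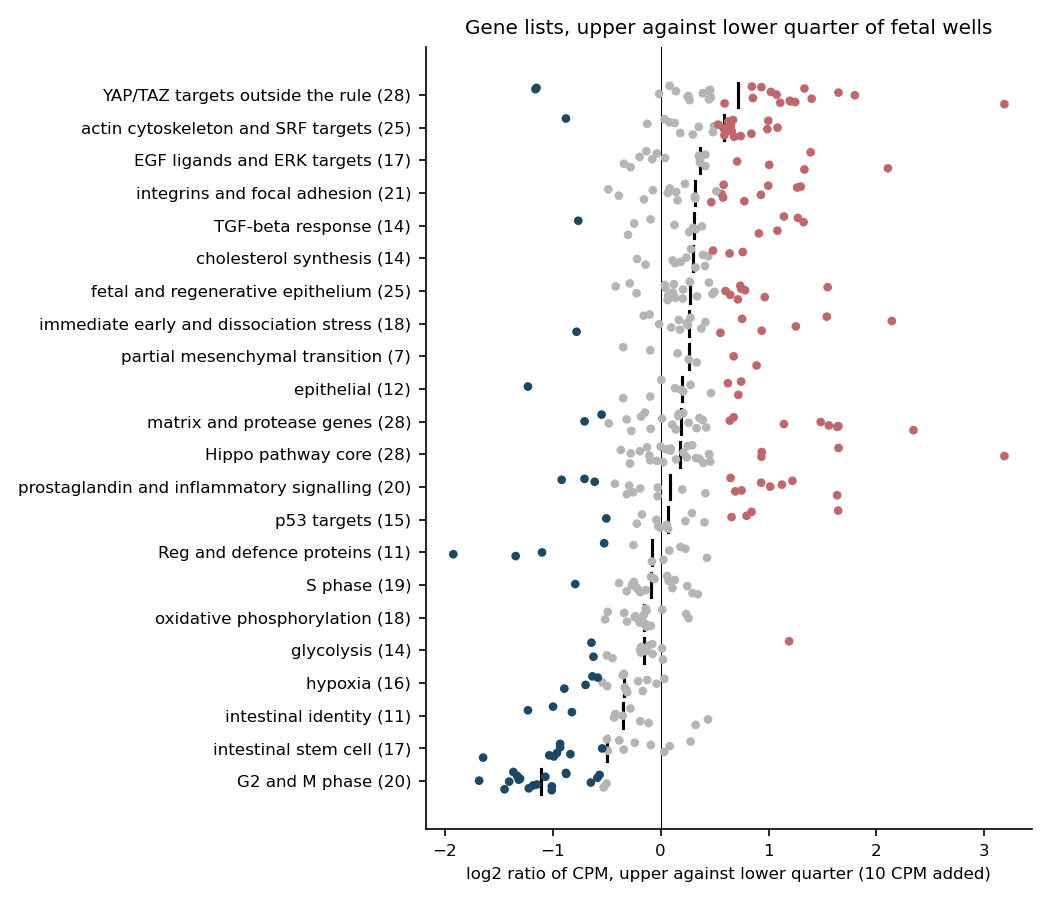
Each dot is a measured gene placed at its log2 ratio of CPM between the upper and lower fetal wells, with 10 CPM added, for every list of at least 7 measured genes, with the number measured in brackets. Red dots were called higher, blue dots lower and grey dots neither, and black bars are list medians. YAP and TAZ targets (median 0.72) stand at one end and G2 and M phase genes (median -1.11) at the other.

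Genes of adult intestinal stem cells were lower in part in the members. Of 17 measured, 8 were called lower and none higher, with a median log2 ratio of -0.50. Lgr5, the R-spondin receptor that marks crypt stem cells, stood at 46.1 CPM in the members, 102 CPM in the middle wells and 165 CPM in the lower wells, 3.59-fold lower (2.73 to 4.78). A UMI of Lgr5 was found in 28 members and 62 lower wells, with a median of 0 against 96.99 CPM. The Wnt target Axin2 was 2.53-fold lower, the stem cell factor Ascl2 3.63-fold on 9 against 29 UMIs, the ubiquitin ligase Rnf43 2.45-fold, Lrig1 2.14-fold, Prom1 1.93-fold and Sox9 1.82-fold. Cd44, Slc12a2, Tnfrsf19 and Znrf3 were not called. In thinned wells, 5 of 14 measured genes were called lower, beside 410 of all 8659 genes measured there. The calls of Axin2 and Ascl2 were lost in them, at log2 ratios of -0.35 and -0.74.

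Of 11 genes of intestinal identity, 3 were called lower: the epithelial transcription factor Elf3, at 290 against 695 CPM (2.39-fold lower, 2.13 to 2.69), the serine protease Tmprss2 (2.03-fold lower) and Onecut2 (1.78-fold lower). Cdx2, Hnf4a and Cdh17, other genes of the list, were not called, and Cdx2 had few UMIs. Defence genes were lower in part, with 4 of 11 called. Lcn2, a siderophore-binding protein, stood at 56.7, 200 and 243 CPM, 4.28-fold lower (3.36 to 5.501), and lactoferrin, Ltf, at 104, 243 and 280 CPM, 2.69-fold lower (2.22 to 3.26). The antimicrobial lectins Reg3b and Reg3g were not called. Ifitm1, an interferon-induced membrane protein, was 3.78-fold lower, the lysophospholipase Enpp2 4.97-fold, Ppp1r1b 3.87-fold, Tshz1 4.05-fold, Tm4sf20 6.53-fold and the retinal reductase Dhrs3 2.89-fold. The list of genes of the goblet lineage had 5 measured members, of which Spink4 (9.35 against 42.8 CPM) and Creb3l1 were called lower. For 14 of the 15 lowest genes by rule, the middle wells lay between both the upper and the lower wells. As for the highest genes, the way they were picked favours this.

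Genes of the G2 and M phases were lower in the members, with 18 of 20 called and a median of -1.11. Top2a, the topoisomerase of mitotic chromosomes, stood at 33.4, 152 and 108 CPM, 3.24-fold lower (2.34 to 4.57), with the call lost in sets of 123 wells (log2 ratio -0.18 against -1.45) and in thinned wells (-0.36). Cenpf, a kinetochore protein, stood at 24.0, 84.6 and 99.2 CPM. Mki67 stood at 70.8, 153 and 153 CPM. Unlike the stem cell genes, the summed level of the list did not follow the share in steps, with 671 CPM in the members, 1704 CPM in the middle wells and 1546 CPM in the lower wells. Wells were uneven in it: the median well had 250, 503 and 348 CPM in the 3 sets, and the highest 4158, 11570 and 12624 CPM. In thinned wells 6 of 17 were called lower, beside 410 of all 8659 genes measured there. Of 19 S phase genes, 1 (Gins2) was called lower and none higher, and Pcna had 306 against 283 CPM. When wells at or below the median G2 and M share alone were compared, 13 of 26 YAP and TAZ targets were called higher, beside 7.14% of all genes, and 9 of 15 stem cell genes lower, beside 7.61%. That comparison had 46 upper wells.

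Few metabolic genes were called. None of 18 genes of oxidative phosphorylation was called, with a median of -0.15. Of 14 glycolysis genes 1 was called higher, the regulator Pfkfb3 (81.4 against 30.1 CPM), and Gpi1 and Ldhb lower. Of 16 hypoxia genes, with a median of -0.34, 4 were called lower, among them Egln3 (263 against 497 CPM). This count rested on the processing, falling to 1 with all other wells as the reference. There the total of all genes called lower stayed within 1.5-fold of the main 811. Of 15 p53 targets, 4 were called higher and 1 lower, and Cdkn1a, Mdm2 and Ccng1 were not called.

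The members were epithelial cells by their markers. Epcam had 420 CPM in the members and 537 CPM in the lower wells (a ratio of 0.782, 0.702 to 0.872) and Cdh1 591 against 632 CPM, neither called. Of 12 measured epithelial markers, 3 were called higher, namely Krt8 (1.65-fold, at 2113 CPM), Ocln and Cldn4, with a median log2 ratio of 0.20. The calls of Krt8 and Ocln were lost in thinned wells, among other settings, and that of Cldn4 with equal weight for each well. Elf3, at 290 against 695 CPM, was the 1 called lower. Markers of mesenchymal, immune, endothelial and enteric neural cells were near 0 in every set. The summed level of 15 mesenchymal markers was 3.34 CPM in the members, 1.65 CPM in the middle wells and 4.51 CPM in the lower wells, with Col1a2, Col3a1, Pdgfra and Dcn at 0. That of 11 immune markers was 4.67, 3.95 and 7.52 CPM, with Cd3e and Lyz2 at 0, that of 9 endothelial markers 18.7, 19.8 and 25.6 CPM, with Pecam1 at 0, and that of 9 enteric neural markers 14.0, 11.2 and 16.5 CPM, with Sox10 at 0. The summed level of 9 mesothelial markers was 2560, 2187 and 1961 CPM, mostly from Msln and Krt19. Krt19 (1331 against 1151 CPM, not called) is also on the epithelial list. Msln, counted above among the fetal genes, was called higher in the members (1224 against 804 CPM, 1.52-fold, 1.41 to 1.64). That call was lost in thinned wells and against all other wells, among other settings. Wt1 was at 0. Of 4 RNA species known from damaged cells none was called. Rn45s stood at 26772 CPM in the members and 27033 CPM in the lower wells, Malat1 at 2605 against 2575 CPM, Kcnq1ot1 at 1228 against 983 CPM (1.25-fold, 1.16 to 1.34) and Neat1 at 937 against 1193 CPM (a ratio of 0.786, 0.731 to 0.845). Wells with over 2% of their UMIs from Kcnq1ot1 numbered 2 among the members and 0 among the middle and lower wells.

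Over all 354 thinned wells, and outside the genes of the rule, the genes whose share followed the sum of the 6 most closely were Amotl2 (Spearman 0.50), Ahnak (0.43), Myc (0.42), Ajuba (0.42) and 2310007B03Rik (0.39), followed by F2r, Tmem171, Anxa3, Ccnd1 and Klf6, the last at 0.33. The median over the 4261 genes ranked was -0.0033. These correlations share 1 library and were computed on the wells that the rule ranked. Ahnak, a large membrane scaffold, had 1892 against 716 CPM (2.64-fold), F2r, the thrombin receptor, 798 against 286 CPM (2.79-fold), and the cyclin Ccnd1 1310 against 647 CPM (2.02-fold). Against all other wells the calls of Ccnd1 and Anxa3 were lost, at log2 ratios of 0.41 and 0.57. Each was 1 of the more abundant genes, with a median member well of 1530 CPM for Ahnak, 597 CPM for F2r and 1340 CPM for Ccnd1.

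Wells like the members were rare in the other 4 libraries. A share at or above the fetal threshold of 0.362% was found in 4 of 359 Cys wells, or 1.11% (exact binomial interval 0.304 to 2.83). It was found in 0 of 302 small intestinal wild-type wells, which allows up to 0.993% by the limit of 3 counts (exact binomial bound 1.21%), in 0 of 351 Lkb1 +/- wells (up to 0.855%, exact 1.05%) and in 0 of 318 Bud wells (up to 0.943%, exact 1.15%). The highest share was 0.290% in wild type, 0.199% in Lkb1 +/-, 0.0637% in Bud and 0.450% in Cys. Summed over all wells, Ctgf stood at 796 CPM in fetal wells and 771 CPM in Cys, and at most 7.14 CPM in the other 3 libraries. Ankrd1 by contrast stood at 1025 CPM in fetal wells and 28.1 CPM in Cys, and Cyr61 at 367 against 22.5 CPM, so the Cys share was mostly Ctgf. Akap12 had 507 UMIs in the fetal wells and none in the 4 others. With 1 plate per group, culture and plate cannot be told apart from genotype and stage.

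In wild type, Lkb1 +/- and Bud, 244, 248 and 236 wells had none of the 6 genes, so lower wells could not be told from the rest there and gene lists were not compared. Left-out ratios computed there included Cyr61 at 0.585 (0.374 to 0.908) in Lkb1 +/- and Ctgf at 9.26 (1.43 to 390) in Bud. They are not read, since their lower wells were drawn arbitrarily from wells with none of the other genes. In Cys, where 59 of 359 wells had none, the same rule gave 89 upper and 89 lower wells, and 478 of 9835 genes were called higher (4.86%) and 311 lower (3.16%). Of 20 measured YAP and TAZ targets, 4 were called higher in Cys and none lower, with a median of 0.23. Amotl2 (41.9 against 9.39 CPM, 4.47-fold, 2.17 to 10.3), Ajuba (2.52-fold, 1.90 to 3.38), Myc (2.37-fold, 1.80 to 3.14) and Hbegf (1.70-fold, 1.06 to 2.79) were higher in the upper wells of Cys as they were in those of the fetal library. Of 24 actin and SRF genes none was called in Cys, against 15 of 25 in the fetal wells, and the median was 0.08. Stem cell genes had 1 of 15 called higher and 1 lower, S phase genes 8 of 19 higher and none lower, and immediate early genes 4 of 15 lower and none higher. G2 and M genes were called lower in 9 of 20 in Cys. When the 2 deepest wells were left out of Cys, the largest of them an upper well of 147615 UMIs, 418 of 9735 genes were called higher and 309 lower. Of 20 YAP and TAZ targets 4 were then higher and 2 lower, and of 19 S phase genes 9 were higher. In Cys, RNA known from damaged cells differed between the sets: Kcnq1ot1 had 1061 CPM in the upper and 4282 CPM in the lower wells, and wells with over 2% of their UMIs from it numbered 1 of 89 upper and 17 of 89 lower wells. Malat1 had 1826 against 2496 CPM. Without the 22 Cys wells over that limit, 383 of 9734 genes were called higher and 271 lower. Of 20 YAP and TAZ targets 3 were then called higher and none lower, and no actin gene was called. In this reduced set Amotl2 was 3.41-fold higher (1.79 to 6.94), Ajuba 2.001-fold, Myc 2.07-fold and Hbegf 1.75-fold. Of 19 S phase genes 7 were called higher there, and of 20 G2 and M genes 8 were called lower. The difference between the 2 libraries was not tested.

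In Cys, 5 of the 6 genes could be left out of the rule in turn, since Akap12 had no UMI. Cyr61 had a ratio of 1.43 (0.808 to 2.597), Lats2 of 1.89 (0.834 to 4.65) and Cald1 of 0.739 (0.330 to 1.64), all with intervals that include 1. Ctgf had a ratio of 1.28 (1.16 to 1.42), but without it 216 of 359 wells had none of the other genes, which leaves its lower wells arbitrary among those wells. The ratio of Ankrd1 in Cys rested on 1 well, which held 80.3% of its 71 UMIs in the upper wells. The fetal ratios were 13.4 for Cyr61, 6.23 for Lats2, 2.12 for Cald1, 4.40 for Ctgf and 10.99 for Ankrd1.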

How the data were processed

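The authors deposited, for each plate, raw counts of UMIs as whole numbers and, as an alternative used here, transcript numbers, which are estimated counts corrected by the authors for repeated identifiers. Deposited read counts served only for reads per UMI (2.79 in the members, 2.76 in the lower wells). Per the submitters' processing notes, the tools were Seurat 4.1.0, featureCounts 1.5.2 and STAR 2.6.1, with the build GRCm38. Values of paralogs and overlapping genes are uncertain, because the handling of strand and of shared reads is not given in the sources. Mitochondrial genes were not among the rows.

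The minimum of 1000 UMIs left out 13 of 384 fetal wells. No doublet caller was run, so wells that took up several cells were not excluded. The deepest member held 82879 UMIs against a member median of 14556. Upper and lower wells were summed and scaled to CPM, with exact Poisson intervals on levels, exact conditional binomial intervals on ratios and exact Clopper-Pearson intervals on shares, all at 95%. A 0 is given the limit of 3 counts beside its exact bound. All cover counting error only. The code (Python 3.11.15, numpy 2.4.6, pandas 2.3.3, scipy 1.17.1) was checked on simulated data. The genes named are the 20 highest and 15 lowest called genes by log2 ratio, seen in at least 10% of wells of the higher set with at most 25% of its UMIs in 1 well, up to 4 genes of each of 34 lists, the 10 genes most alike to the share, and the Hippo genes; further list members are named with their list, after their values were seen. The members, lists and tests were chosen with earlier results of these data known. With 1 library per group no test was possible, so no p-value is given.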

Additional observations from a re-analysis of the deposited data

Results flagged for a closer look

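Among the genes named above, 2 were called in opposite directions in the fetal and the Cys wells under the same rule. Ltf had a log2 ratio of -1.34 between the upper and lower fetal wells (104 against 280 CPM) and of 0.69 in Cys (793 against 488 CPM). Without the 2 deepest Cys wells its log2 ratio there was 0.39 and it was not called. Sprr1a had a log2 ratio of 1.55 in the fetal wells (856 against 286 CPM) and of -0.78 in Cys, on 8 against 18 UMIs, and of -0.88 without the 2 deepest Cys wells. Without the 22 Cys wells with over 2% of UMIs from Kcnq1ot1 neither gene was called there, with log2 ratios of 0.38 for Ltf and -0.69 for Sprr1a. The difference between the libraries was not tested, since each is 1 plate.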

How the results depend on the processing

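No paired analysis was possible because each group was 1 library. Over 13 settings, 2 of them chosen after the data were seen (as were both settings for Cys), the counts of YAP and TAZ targets called higher stayed between 12 and 16. Genes called higher numbered 722 of 10753, and 473 of 11601 against all other wells and 448 of 8659 in wells thinned to 5000 UMIs. With equal weight for each well, a setting with no interval, they numbered 1435 of 10753. Genes called lower numbered 811 of 10753, and 410 of 8659 thinned, 1662 of 10753 with equal weight and 534 of 7503 among genes of at least 50 UMIs. The shares of 6.71% and 7.54% thus belong to the main setting alone, and list counts in another setting are to be read beside its own totals. Thinning left 9 of 25 actin, 4 of 20 integrin, 5 of 14 stem cell and 6 of 17 G2 and M genes called. Equal weight left 9 of 25 actin genes called higher, and 5 of 11 identity genes and 1 of 16 hypoxia genes called lower. With all other wells as reference, 5 of 21 integrin, 4 of 25 fetal and 1 of 16 hypoxia genes were called. With sets of 123 wells 2 of 16 hypoxia genes were called, and with the rule of Ankrd1, Cyr61 and Ctgf 5 of 21 integrin and 2 of 16 hypoxia genes. Totals over all genes not given above stayed within 1.5-fold of the main 722 higher and 811 lower. In wells low in G2 and M genes, 1 of 6 measured G2 and M genes and 2 hypoxia genes were called lower, and the G2 and M median (0.49), Top2a (0.36) and Trp53inp1 (0.25) turned positive on the log2 scale. Ero1l (0.19) and Ndrg1 (0.069) did so in thinned wells. The G2 and M list itself chose the wells low in it. Its own values there, with Top2a on 12 UMIs, thus cannot bear on the main G2 and M result. The left-out ratio was 9.33 thinned and 9.50 with 123 wells for Ankrd1, 3.39 with 123 wells for Ctgf and 3.63 thinned for Akap12. Where fewer UMIs or wells were not the cause by construction, the cause was not tested. Of named genes that were called, 20 of 110 lost the call against all other wells and 22 of 108 when thinned. Thinning kept 81 of 92 members and the rule of 3 genes 89. Sparse genes such as Tead4, Inhba and Mmp13 rest on few wells, and 1 plate gives no spread between cultures.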

Other observations

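Genes of cholesterol synthesis, a list with no part in the comparison above, were partly higher in the wells rich in YAP targets. Of 14 measured, 3 were called higher and none lower, with a median log2 ratio of 0.30. Insig1, which holds back the sterol sensor, had 59.4 CPM in the upper and 34.6 CPM in the lower wells (1.72-fold, 1.19 to 2.51), and Mvd 38.7 against 24.8 CPM (1.56-fold, 1.001 to 2.47), a call lost in 7 of 13 other settings. Hmgcs1 was measured and not called.

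Genes known from stomach epithelium went both ways. Psca, a surface antigen, had 55.4 against 16.5 CPM (3.35-fold higher, 2.07 to 5.63), and Vsig1, a junction protein of gastric epithelium, 29.4 against 73.7 CPM (2.51-fold lower, 1.74 to 3.67). Twist1, a transcription factor better known from mesenchyme, had 61.4 against 28.6 CPM (2.15-fold higher, 1.46 to 3.23), with a UMI in 44 of 92 upper wells and 26 of 92 lower wells, while the summed mesenchymal markers were at 3.34 against 4.51 CPM.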
